A study of Mus musculus with 56 samples.

Results

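The genes described here are 10 neuropeptide precursors of cortex and nucleus accumbens: Cck, Vip, Sst, Npy, Cort, Tac2, Adcyap1, Crh, Cartpt and Nts. Every probe set that the platform's gene table assigned to 1 of these symbols alone was taken, which gave 11 probe sets of the 44951 on the array, 2 of them for Adcyap1 and 1 for each other gene. Of the 10 genes, 9 had 1 probe set brighter than log2 5 on 13 or more of the 54 arrays that formed pairs, and these entered the test over 16056 probe sets. Cort and the second Adcyap1 probe set did not pass, and their values are described only.

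The study profiled 2 brain regions of inbred mice on 1-colour oligonucleotide arrays. Nucleus accumbens, the ventral striatum, was represented by 27 arrays of 27 strains, and prefrontal cortex by 29 arrays of 29 strains, MRL/MpJ and NZO/HILtJ being profiled in cortex only. Each array carried RNA pooled from 3 male mice of 1 strain, bought at 8 to 10 weeks of age, and both regions of a strain were cut from slices of the same brains. The strains with both regions were WSB/EiJ, C57BL/6J, C3H/HeJ, SWR/J, A/J, NOD/LtJ, 129S1/SvImJ, SM/J, BALB/cByJ, SJL/J, AKR/J, RIIIS/J, BTBR T+ tf/J, PL/J, CBA/J, P/J, BUB/BnJ, NZW/LacJ, C58/J, NON/LtJ, CE/J, MA/MyJ, C57BR/cdJ, KK/HlJ, DBA/2J, I/LnJ and FVB/NJ. A strain was thus 1 pool and 1 array per region, so no strain's level carried an error of its own, and n below counts strains.

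Neuropeptides are cut from larger precursor proteins by convertases, stored in dense-core vesicles and released to act mostly on G protein-coupled receptors. In cortex several of them, among them Sst, Vip and Npy, define classes of GABAergic interneurons, and Cck is also made by excitatory neurons. In striatum, Sst and Npy are carried by a sparse class of interneurons, while Cartpt and Nts are known as peptides of the projection neurons of the ventral part.

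The sequences just upstream of 5 of these genes are shown because Cck and Vip on the cortex side, Cartpt on the accumbens side, and Sst with Npy in both regions carry the contrasts that follow. RefSeq promoter windows of build GRCm38.p6, running from 250 bases before to 50 bases after a gene's start, were matched by symbol for 9 of the 10 genes, all but Crh. Each line gives the 150 bases before the start, 5′ to 3′ along the gene's strand, and capitals mark the longest match to the cAMP response element TGACGTCA, its 7-letter form TGACGTC or its 5-letter core CGTCA.
Cck (chr9:121495695-121495844, minus strand): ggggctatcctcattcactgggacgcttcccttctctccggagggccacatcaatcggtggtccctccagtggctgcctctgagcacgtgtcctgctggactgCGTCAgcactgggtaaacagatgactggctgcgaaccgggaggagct
Vip (chr10:5639068-5639217, plus strand): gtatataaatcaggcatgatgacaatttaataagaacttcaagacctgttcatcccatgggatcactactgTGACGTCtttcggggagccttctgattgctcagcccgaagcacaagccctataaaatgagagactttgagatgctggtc
Sst (chr16:23890845-23890994, minus strand): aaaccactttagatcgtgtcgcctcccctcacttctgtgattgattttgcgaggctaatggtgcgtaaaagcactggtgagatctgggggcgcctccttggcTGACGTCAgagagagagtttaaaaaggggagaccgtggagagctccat
Npy (chr6:49822560-49822709, plus strand): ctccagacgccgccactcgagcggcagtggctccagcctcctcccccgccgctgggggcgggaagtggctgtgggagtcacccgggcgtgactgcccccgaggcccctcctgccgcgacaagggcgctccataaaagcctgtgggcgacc
Cartpt (chr13:99900684-99900833, minus strand): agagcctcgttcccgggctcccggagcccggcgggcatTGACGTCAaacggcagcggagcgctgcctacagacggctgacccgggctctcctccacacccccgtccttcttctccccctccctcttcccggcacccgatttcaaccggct

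Read on both strands over the whole windows, TGACGTCA occurred in 1.79% of 32851 windows and in those of Sst and Cartpt, 2 of the 9 genes found. The nested TGACGTC occurred in 3.21% of windows and also in those of Vip and Adcyap1, so in 4 of 9 genes. The core CGTCA, which lies inside both, occurred in 20.8% of windows and in 7 of 9 genes, with Npy and Tac2 having none of the 3 words. The genes with a match include the cortex-side Vip and Cck as well as the accumbens-side Cartpt, so the words did not divide them by region. These matches describe letters in a window and say nothing of binding.

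Marker lists set the regions apart on most arrays, but single arrays of both regions stood out. Of the 14 genes of the striatal spiny projection neuron list matched to a probe set here, all 14 were kept and all 14 were higher in accumbens, where the list's mean log2 intensity ranged from 7.22 to 10.31, against 4.98 to 8.82 in cortex. Of 15 cortical excitatory neuron genes matched to a probe set, 14 were kept and 13 were lower in accumbens, the exception being Bcl11b, with list means of 4.77 to 6.04 in accumbens and 8.01 to 8.68 in cortex. Over 8811 genes, 50% were called higher in accumbens and 33.8% lower. The cortex value of 8.82 for the spiny neuron list belonged to the MA/MyJ cortex array, described at the end. The accumbens value of 7.22 belonged to the BALB/cByJ array, and Slc17a7 of the cortical list was above log2 5 on 6 accumbens arrays. For genes such as Pdyn and Fezf2, no paired array of the lower region was above log2 5, so the filter favoured their calls. Array medians of the deposited intensity ran from 9.65 to 10.13 in accumbens and from 9.93 to 10.42 in cortex. The regions look to have been normalized separately, which cannot be told apart from a difference of tissue, and over all kept probe sets the median difference was 0.13 log2 units, higher in accumbens.

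The region comparison asked which precursor genes differed between accumbens and cortex of the same brains. Cartpt and Nts were read at high intensity in accumbens and close to the bottom of the scale in cortex, Crh was moderately higher in accumbens, Cck, Vip, Adcyap1 and Tac2 were lower there, and Sst and Npy were lower by less than 1 log2 unit. In limma's moderated test with strain as a block and Benjamini-Hochberg adjustment over all kept probe sets, 3 of the 9 tested genes were called higher in accumbens and 6 lower. Across all probe sets 83.3% were called in either direction, 51.8% higher (8320) and 31.5% lower (5060), so being called sets no gene apart here. That split was 6839 higher and 6335 lower after quantile normalization across regions and 6659 higher and 6521 lower after centring each array, and the direction of each of the 9 genes was the same under both. Of the 9, 3 were called higher and 4 lower with a difference of 2-fold or more, as were 15.5% of probe sets, 8.96% higher and 6.59% lower, but for Tac2 and Adcyap1 that size rests on values below log2 5. Vip, Adcyap1, Cartpt and Nts were above log2 5 on no array of their lower region and Tac2 on only 6 of 27 accumbens arrays, so passing the filter already favoured a difference in these 5. In bulk tissue, fewer cells of a type and less RNA per cell cannot be told apart.

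**Figure D1:**
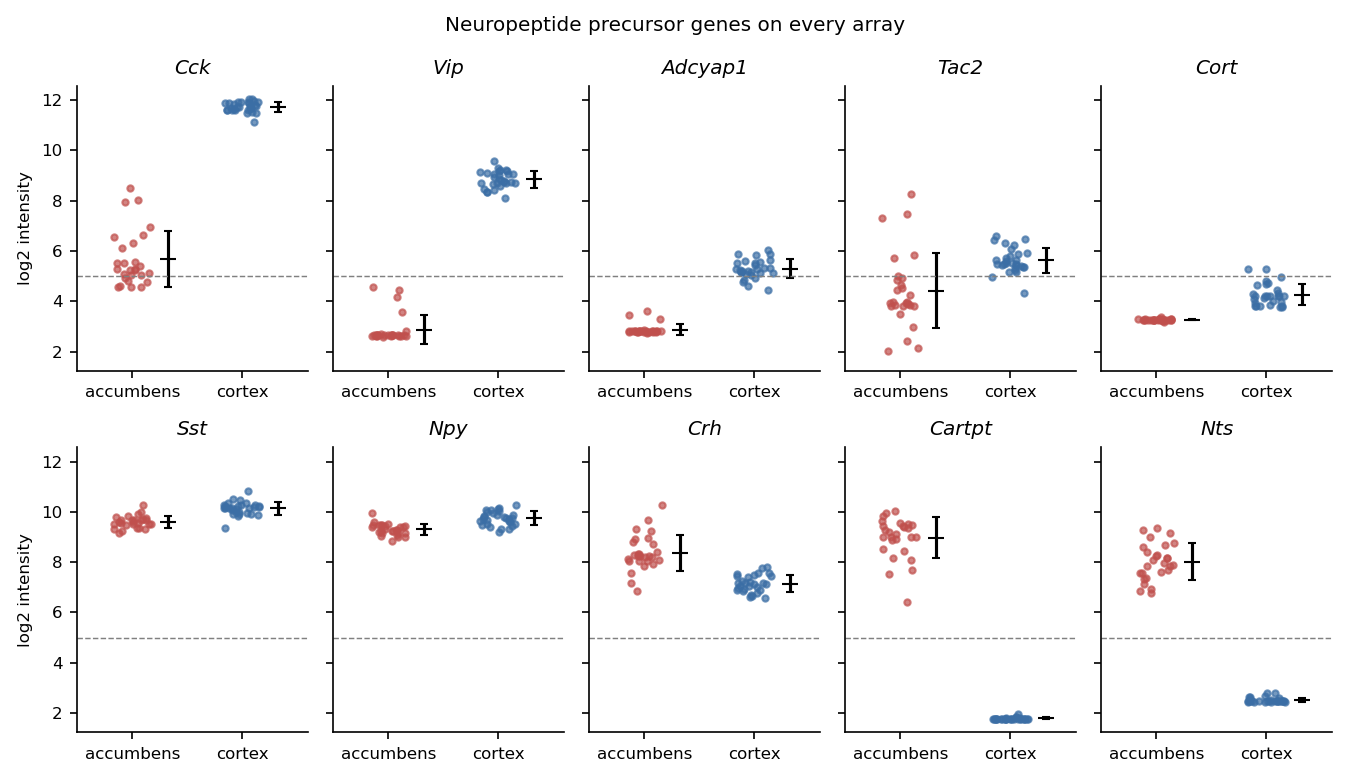
Log2 intensity of each of the 10 precursor genes on every array, accumbens (27 arrays, left) and cortex (29 arrays, right), with 1 point per array, the mean and SD beside the points, and a dashed line at log2 5. The accumbens and cortex points do not overlap for Cck, Vip, Adcyap1, Cort, Cartpt and Nts, and they overlap for Tac2, Sst, Npy and Crh.

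Cartpt encodes the precursor of CART, a peptide associated with feeding and reward. It lay between 6.40 and 10.05 in accumbens with a median of 9.14, against 1.75 to 1.97 in cortex with a median of 1.77. No cortex array was above log2 5, and the regions did not overlap, which held in the higher direction for 5.85% of all probe sets. The mean was 8.97 ± 0.82 in accumbens (SD, n = 27) and 1.78 ± 0.04 in cortex (SD, n = 29), and the paired difference was 7.18 (SE 0.15, limma adjusted p = 5.5e-27), higher in accumbens in 27 of 27 strains. Because the cortex values were below log2 5, the fold is a bound of at least 15.7-fold higher.

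Nts encodes neurotensin, a peptide known to interact with dopamine signalling. Its accumbens values ran from 6.78 to 9.38 with a median of 7.95, against 2.42 to 2.81 in cortex with a median of 2.48. Again no cortex array came near log2 5, and the regions did not overlap. The paired difference was 5.51 (SE 0.14, limma adjusted p = 3.5e-25), at least 8.12-fold higher in accumbens and higher in 27 of 27 strains, with means of 8.02 ± 0.73 in accumbens (SD, n = 27) and 2.52 ± 0.10 in cortex (SD, n = 29).

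Within accumbens, 3 strains were among the lowest for both Cartpt and Nts, with little relation over the other arrays. Cartpt was lowest in BTBR T+ tf/J (6.40), SJL/J (7.52), BALB/cByJ (7.71) and FVB/NJ (8.09), and Nts was lowest in SJL/J (6.78), BTBR T+ tf/J (6.86) and FVB/NJ (6.95). BALB/cByJ, low for Cartpt, was rank 4 from the top for Nts at 8.99. Over the 27 accumbens arrays the genes correlated with r of 0.35 and rho of 0.21, and r was 0.03 without BTBR T+ tf/J and SJL/J. On the BTBR T+ tf/J, SJL/J and FVB/NJ arrays the spiny neuron list stood at 10.02, 10.03 and 10.11, at or above the accumbens median of 10.02, whereas on the BALB/cByJ array it stood at 7.22, the lowest of all accumbens arrays.

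Crh encodes corticotropin-releasing hormone, the peptide that drives the pituitary stress response and is also made by forebrain neurons. Its accumbens values ran from 6.87 to 10.26 with a median of 8.25, against 6.58 to 7.80 in cortex with a median of 7.13. The regions overlapped, although 26 of 27 strains were higher in accumbens, the exception being FVB/NJ with a difference of -0.07. The mean was 8.38 ± 0.72 in accumbens (SD, n = 27) and 7.15 ± 0.34 in cortex (SD, n = 29), a paired difference of 1.23 (SE 0.12, limma adjusted p = 2.1e-10), or 2.35-fold higher. C57BL/6J was the lowest strain in both regions, at 6.87 in accumbens and 6.58 in cortex. NON/LtJ was the highest in accumbens at 10.26 and the second highest in cortex at 7.77.

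**Figure D2:**
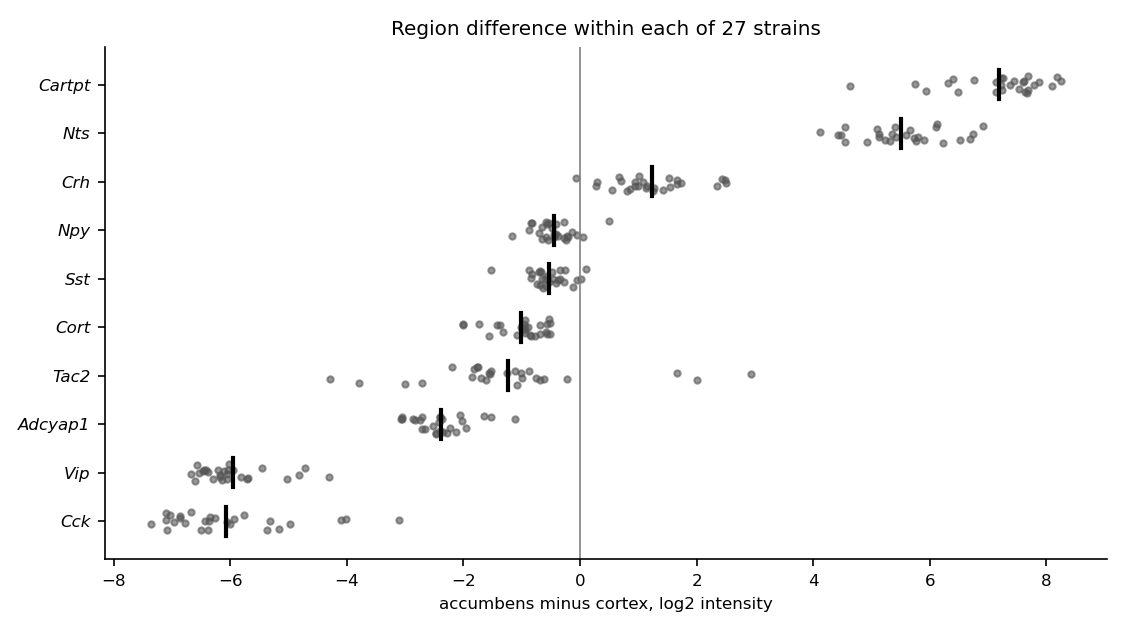
Accumbens minus cortex difference in log2 intensity within each of 27 strains, 1 point per strain, with a bar at the mean for each of the 10 genes. All 27 differences lie above 0 for Cartpt and Nts and below 0 for Cck, Vip, Adcyap1 and Cort, and Tac2 spreads over both sides, from -4.29 in FVB/NJ to 2.93 in CE/J.

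Cck encodes cholecystokinin. It lay between 4.56 and 8.52 in accumbens with a median of 5.27, against 11.15 to 12.05 in cortex with a median of 11.74. Accumbens arrays spread widely (5.67 ± 1.11, SD, n = 27) and cortex arrays little (11.74 ± 0.19, SD, n = 29), with no overlap, which held in the lower direction for 4.67% of all probe sets. The paired difference was -6.07 (SE 0.19, limma adjusted p = 1.9e-22), lower in accumbens in 27 of 27 strains. The difference was smallest in BUB/BnJ, at -3.11, and largest in I/LnJ, at -7.37. Of the accumbens arrays, 20 of 27 were above log2 5, and with the others raised to that level the fold was at least 63.6-fold lower in accumbens.

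Vip encodes vasoactive intestinal peptide, which marks a class of cortical interneurons that inhibit other interneurons. It lay between 2.56 and 4.58 in accumbens with a median of 2.64, against 8.10 to 9.57 in cortex with a median of 8.82. No accumbens array was above log2 5, and the regions did not overlap. The paired difference was -5.96 (SE 0.11, limma adjusted p = 3.7e-28), lower in 27 of 27 strains and at least 14.3-fold lower in accumbens, with means of 2.87 ± 0.58 in accumbens (SD, n = 27) and 8.86 ± 0.34 in cortex (SD, n = 29). C57BL/6J had the lowest cortex value, 8.10, and NZO/HILtJ the highest, 9.57.

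Adcyap1 encodes PACAP, a peptide related to Vip that shares receptors with it. Its tested probe set lay between 2.74 and 3.63 in accumbens, with no array above log2 5, against 4.44 to 6.03 in cortex, with 24 of 29 arrays above. The regions did not overlap, and the paired difference was -2.39 (SE 0.09, limma adjusted p = 4.6e-21), lower in 27 of 27 strains. Because the cortex mean of 5.28 ± 0.38 (SD, n = 29) was itself close to log2 5, the bound is only at least 1.2-fold lower in accumbens. The second probe set, which failed the filter, averaged 2.94 ± 0.05 in accumbens (SD, n = 27) and 4.47 ± 0.33 in cortex (SD, n = 29), with 1 of 29 cortex arrays above log2 5. The 2 probe sets correlated across arrays with Pearson's r of 0.52 in accumbens and 0.45 in cortex.

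Tac2 encodes neurokinin B in mouse, the ligand of the receptor Tacr3. It ranged from 2.01 to 8.26 in accumbens with a median of 3.96, against 4.34 to 6.59 in cortex with a median of 5.52. Of the accumbens arrays 6 of 27 and of the cortex arrays 27 of 29 were above log2 5, and the accumbens range enclosed the cortex range. The mean was 4.41 ± 1.49 in accumbens (SD, n = 27) and 5.63 ± 0.49 in cortex (SD, n = 29), a paired difference of -1.23 (SE 0.28, limma adjusted p = 2.2e-04), lower in accumbens in 24 of 27 strains. CE/J, BALB/cByJ and NON/LtJ were higher in accumbens. With accumbens values under log2 5 raised to that level, the means were 1.22-fold apart. When values of both regions were raised in this way, the difference was -0.28 with a limma adjusted p of 0.134, so the call rests on the order of values below that level.

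Cort encodes cortistatin, a peptide related to somatostatin that binds its receptors. It lay between 3.17 and 3.39 in accumbens and between 3.78 and 5.29 in cortex, with 0 of 27 accumbens arrays and 2 of 29 cortex arrays above log2 5, those of C57BL/6J at 5.29 and SM/J at 5.28. All 27 strains read lower in accumbens, with a mean difference of -1.01, but both regions were dim and no fold is given.

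Sst encodes somatostatin and Npy neuropeptide Y, and both were bright on every array of both regions. Sst lay between 9.17 and 10.27 in accumbens with a median of 9.62, against 9.36 to 10.84 in cortex with a median of 10.17. Npy lay between 8.84 and 9.96 in accumbens with a median of 9.30, against 9.21 to 10.27 in cortex with a median of 9.75. The ranges of the regions overlapped for both genes. Sst was lower in accumbens by a paired difference of -0.52 (SE 0.06, limma adjusted p = 5.0e-09), or 1.44-fold, in 25 of 27 strains. Npy was lower by a paired difference of -0.44 (SE 0.06, limma adjusted p = 1.2e-07), or 1.36-fold, also in 25 of 27 strains. Both lay close to the median absolute difference of 0.39 over all kept probe sets and ran against the median shift of 0.13. After centring each array they were -0.66 for Sst and -0.58 for Npy.

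Sst and Npy varied together from strain to strain. In accumbens their Pearson's r was 0.85 and Spearman's rho 0.80 over 27 arrays, and each was the gene most like the other among 8810 genes. Without NOD/LtJ and BALB/cByJ, the arrays farthest from the Sst median, r was 0.73. In cortex r was 0.62 and rho 0.47 over 29 arrays, and 0.46 without SWR/J and SM/J, where Npy was rank 6 of the genes most like Sst and Sst rank 4 of those most like Npy. The points share 1 platform and, within a region, 1 dissection scheme, and 36 pairs of tested genes were computed in each region with a median r of 0.17 in accumbens and 0.12 in cortex, so these are descriptions without a test.

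**Figure D3:**
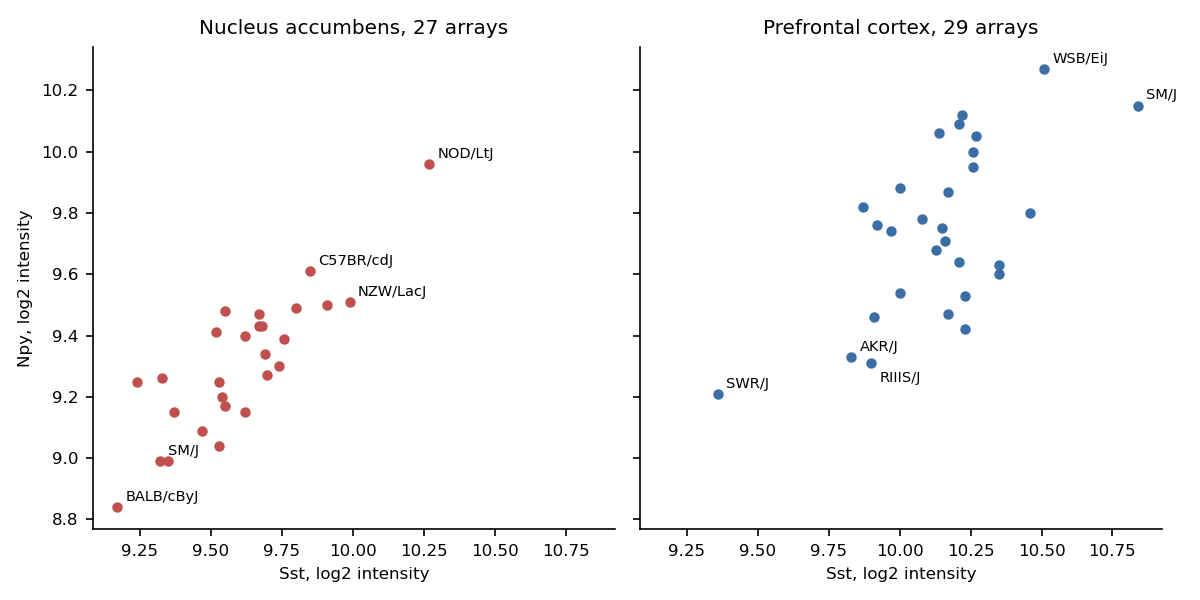
Npy against Sst, both in log2 intensity, with 1 point per array for accumbens (27 arrays, left) and cortex (29 arrays, right) and the outermost strains named. Both panels rise from lower left to upper right, with r of 0.85 in accumbens and 0.62 in cortex, and the strains at the ends differ between the regions.

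The strains at the ends of this pattern were not the same in the 2 regions. In accumbens NOD/LtJ had the highest values, 10.27 for Sst and 9.96 for Npy, and BALB/cByJ the lowest, 9.17 and 8.84. Both arrays stood apart in marker genes: NOD/LtJ had the highest cortical excitatory list mean in accumbens, 6.04, and BALB/cByJ the lowest spiny neuron list mean, 7.22, and the highest Lhx8, 9.64. The part of these markers in the Sst and Npy values was not tested. In cortex SWR/J had the lowest values of both, 9.36 for Sst and 9.21 for Npy, and SM/J had the highest Sst, 10.84, and the second highest Npy, 10.15. SM/J stood at 9.32 for Sst and 8.99 for Npy in accumbens, near the bottom of that region, and so had the largest drop of any strain for both genes, -1.52 for Sst and -1.16 for Npy. The SM/J cortex array also had the highest choroid plexus list mean of any cortex array, over 4 of 6 genes matched to a probe set (Ttr, Clic6, Igf2 and Igfbp2), at 7.34 within a cortex range of 4.53 to 7.34, and its part in these values was not tested.

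Other genes moved with single peptides across accumbens arrays, by the rule of naming the 3 genes with the highest Pearson's r over 27 arrays among 8810. For Cck these were Slc17a7 (0.90), the vesicular glutamate transporter of cortical excitatory neurons, Ccn3 (0.87) and Prdm8 (0.85). For Vip they were Fhl2 (0.89), Frzb (0.87) and Cabp1 (0.86), and for Adcyap1 Prss12 (0.96), Cnih3 (0.88) and Hs3st2 (0.83), both genes being below log2 5 on every accumbens array. Adcyap1 read 3.63 in NOD/LtJ, 3.46 in BALB/cByJ and 3.30 in BUB/BnJ, the next array being AKR/J at 2.84. Its r values therefore rest largely on those higher arrays. For Tac2 the 3 genes were Unc5d (0.88), Tspan6 (0.86) and Gkap1 (0.85), and for Crh Slc38a1 (0.86), Syt13 (0.85) and Grin3a (0.85). For Cartpt they were Tenm4 (0.84), Trhr (0.82), which encodes the receptor of thyrotropin-releasing hormone, and Ntn1 (0.81), and for Nts Myo16 (0.81), Snap91 (0.79) and Ralyl (0.77). In cortex the highest r of any gene was lower, between 0.65 for Cck with Fhl2 and 0.77 for Adcyap1 with Wdfy3 over 29 arrays, and Vip was the third gene most like Crh, with r of 0.59.

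Tac2 and Crh were highest on accumbens arrays that also carried markers of neighbouring forebrain. Tac2 stood at 8.26 in CE/J, 7.46 in BALB/cByJ and 7.33 in NON/LtJ, the next strain being KK/HlJ at 5.84. Crh was highest in NON/LtJ at 10.26, BALB/cByJ at 9.70, CE/J at 9.31 and WSB/EiJ at 9.23. These 4 arrays were also the 4 highest for Lhx8, a transcription factor of ventral forebrain cholinergic neurons, at 9.64 in BALB/cByJ, 8.75 in NON/LtJ, 8.46 in WSB/EiJ and 8.27 in CE/J, the lowest array being BUB/BnJ at 5.05. The list of septum and neighbouring ventral forebrain, of which 3 of 7 genes matched to a probe set were kept (Zic1, Lhx8 and Trpc4), had means of 8.27 in BALB/cByJ, 7.70 in CE/J, 7.68 in NON/LtJ and 7.49 in WSB/EiJ, within a range of 5.33 to 8.27 in accumbens and 4.99 to 5.76 in cortex. The spiny neuron list was lowest on the same arrays, at 7.22 in BALB/cByJ, 8.69 in NON/LtJ, 8.96 in CE/J and 9.28 in WSB/EiJ, against an accumbens median of 10.02. The part of these markers in the Tac2 and Crh values was not tested. Tac2 and Crh correlated with r of 0.70 and rho of 0.51 over the 27 accumbens arrays, and 0.61 without CE/J and BALB/cByJ.

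Without these 4 strains and MA/MyJ, the accumbens minus cortex difference was -1.73 for Tac2 and 0.99 for Crh, both still called by limma. In WSB/EiJ, where Crh was rank 4 from the top, Tac2 was below log2 5.

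Cck and Vip were highest on accumbens arrays with more signal of cortical genes. Cck stood at 8.52 in BUB/BnJ, 8.02 in NOD/LtJ, 7.93 in SJL/J and 6.96 in PL/J. Vip stood at 4.58 in P/J, 4.45 in NOD/LtJ, 4.18 in BUB/BnJ and 3.58 in SJL/J, with the fifth array, DBA/2J, at 2.80. All Vip values in accumbens were below log2 5, where the order of arrays is not reliable. The cortical excitatory list mean was 6.04 in NOD/LtJ, 5.93 in SJL/J, 5.86 in BUB/BnJ and 5.59 in P/J, the 4 highest accumbens arrays, against an accumbens median of 4.95 and a cortex range of 8.01 to 8.68. Slc17a7 alone read 7.57 in BUB/BnJ, 7.06 in NOD/LtJ, 6.09 in SJL/J and 6.02 in P/J, and 2.71 on the lowest accumbens array. The part of these markers in the Cck and Vip values was not tested. Cck and Vip correlated across accumbens arrays with r of 0.74 but rho of 0.28, and r was 0.51 without BUB/BnJ and NOD/LtJ, so the relation rests largely on those arrays. With these 4 strains also left out, the region difference was -6.44 for Cck, -6.20 for Vip, -1.63 for Tac2 and 0.95 for Crh, all called by limma.

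**Figure D4:**
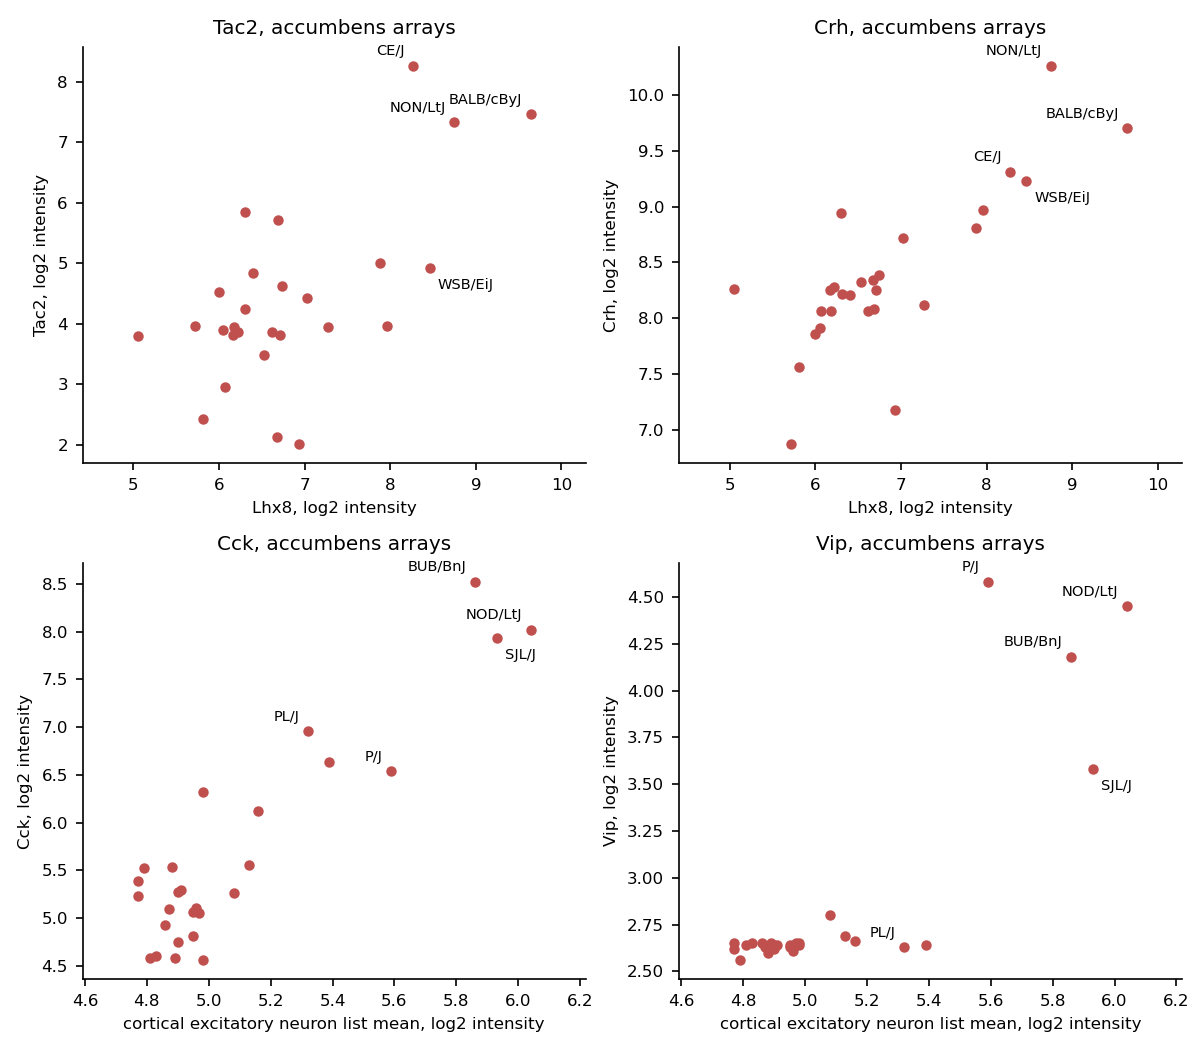
Tac2 and Crh against Lhx8 (upper panels), and Cck and Vip against the mean of the cortical excitatory neuron list (lower panels), all in log2 intensity, with 1 point per accumbens array (27 arrays) and the strains discussed in the text named. The highest Tac2 and Crh points lie at the right, at Lhx8 of 8.27 to 9.64. The 3 highest Cck points lie at list means of 5.86 to 6.04, and the 4 highest Vip points at 5.59 to 6.04. Every Vip point lies below log2 5.

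The strain comparison asked whether strains differed in the same way in both regions, with the scatter of the region difference between strains as the error. By limma's moderated F test, 0 of the 9 tested genes passed an adjusted p of 0.05, against 20.1% of all probe sets (3225 of 16056), and at an unadjusted p under 0.05 the count was 1, Crh, with p = 0.04 and an adjusted p of 0.129. For Crh the SD of strain means was 0.45 and the residual SD 0.48. Adjusted p-values of the others in this F test ran from 0.276 for Npy to 0.851 for Adcyap1, with F of 1.52 and 0.70. The SD of strain means and the residual SD were 0.77 and 1.10 for Tac2, and 0.19 and 0.23 for Sst. A strain mean averages the arrays of both regions and the residual SD is that of a single array. These SDs therefore cannot be set against each other by size. These p-values do not show that the strains were alike, since the strains' levels within 1 region were not tested.

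Some arrays stood at the end of the range for several peptides at once. NOD/LtJ was the highest accumbens array for Sst, Npy, Adcyap1 and Nts, and NZO/HILtJ the highest cortex array for Vip, Tac2, Adcyap1 and Nts, although Adcyap1 in accumbens and Nts in cortex were below log2 5 throughout. BALB/cByJ in accumbens and SWR/J in cortex were lowest for both Sst and Npy. C57BL/6J in cortex was lowest for Vip and Crh and highest for Cort.

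The MA/MyJ cortex array read most spiny neuron genes higher than the other cortex arrays, but neither Cartpt nor Nts. On it 13 of the 14 kept spiny neuron genes lay above all 28 other cortex arrays, the exception being Pdyn at 4.39. Drd1, the D1 dopamine receptor, read 10.29, against 5.31 to 6.24 on the other cortex arrays, and Penk, the enkephalin precursor, read 12.60, against 6.88 to 8.08. Both lay inside their accumbens ranges, whereas Six3 at 5.66 and Isl1 at 5.14 lay below every accumbens array, the lowest of which read 7.01 for Six3 and 6.63 for Isl1. Cartpt read 1.77 on the same array, against 1.75 to 1.97 on the other cortex arrays, and Nts 2.55, against 2.42 to 2.81. The array also had the lowest cortex values of Cck, 11.15, and Adcyap1, 4.44. Leaving MA/MyJ out gave accumbens minus cortex differences of 7.16 for Cartpt, 5.47 for Nts, -6.07 for Cck and -2.42 for Adcyap1.

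**Figure D5:**
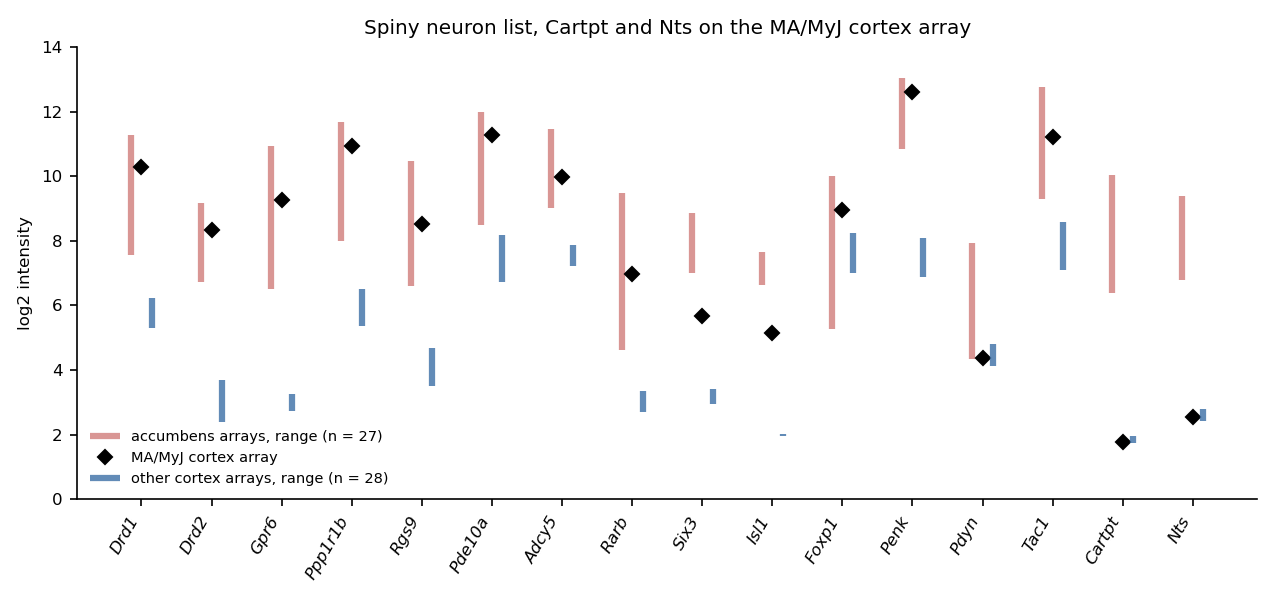
Log2 intensity of the 14 kept spiny neuron genes, Cartpt and Nts on the MA/MyJ cortex array (diamonds), with the range over the 27 accumbens arrays to the left and over the 28 other cortex arrays to the right of each diamond. The diamonds lie above the other cortex arrays for 13 of the 14 spiny neuron genes, and within the other cortex arrays for Pdyn, Cartpt and Nts.

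The receptors and binding proteins of these peptides differed between the regions in both directions. Of 22 listed genes 12 were kept, 5 were higher and 7 lower in accumbens. Their median difference was -0.45 (-0.44 with values under log2 5 raised to it). Over 8811 genes 83.8% were called, 50% higher and 33.8% lower. On paired arrays of their lower region, Sstr3, Npy2r and Tacr3 were never above log2 5, and Cckbr, Sstr2 and Crhbp on only 1. Passing the filter thus already favoured a difference in these genes. The receptors that were called did not all go the way of their ligand. Cckbr, the main brain receptor of cholecystokinin, was lower as Cck was, at 3.94 in accumbens and 8.33 in cortex (means of 27 strains), at least 9.98-fold lower in accumbens with a difference of -4.39 (SE 0.10, limma adjusted p = 3.0e-26). The somatostatin receptors Sstr2, Sstr3 and Sstr4 were all lower in accumbens in 27 of 27 strains, by at least 2.63-fold for Sstr2, 2.29-fold for Sstr3 and 2.87-fold for Sstr4, bounds that give no order. Tacr3, the receptor of the Tac2 product, averaged 5.76 in accumbens and 3.07 in cortex, at least 1.7-fold higher, and its probe set is of a kind prone to cross-hybridisation. Tac2 itself read lower in accumbens, but that call was lost with values under log2 5 raised to it, so an opposite direction is not secure.

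The receptors of neuropeptide Y split. Npy2r averaged 6.32 in accumbens and 2.97 in cortex, at least 2.5-fold higher, and Npy5r was higher by 0.49, whereas Npy1r was lower, with a difference of -0.31. Crhbp, which binds and sequesters the Crh peptide, went opposite to Crh, at 3.68 in accumbens and 6.61 in cortex, at least 3.02-fold lower. The PACAP receptor Adcyap1r1 was higher by 0.68 in 27 of 27 strains while Adcyap1 was lower. For neurotensin, Ntsr2 was higher by 0.28 in 19 of 27 strains, a call lost after centring each array (0.15, limma adjusted p = 0.0873), and Sort1, a sorting receptor that binds it, was lower, with a difference of -0.58. By strain 1 of the 12 receptors was called, Ntsr2 with a limma adjusted p of 0.00213, against 18.8% of all genes. Cckar, Vipr1, Vipr2, Sstr1, Sstr5, Tacr1, Tacr2, Crhr1, Crhr2 and Ntsr1 did not pass the filter.

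Among genes that cut, store and release peptides, most differences were under 1 log2 unit. Of 15 listed genes matched to a probe set 14 were kept, 2 were higher in accumbens, 8 lower and 4 not called, against 50% higher and 33.8% lower over all genes, with a median difference of -0.16, and after centring 10 were lower, with Pcsk1n and Ptprn2 added. The dense-core vesicle protein Scg2 was higher by 1.58 (SE 0.05, limma adjusted p = 4.5e-23), or 2.98-fold, in 27 of 27 strains. Qpct, which modifies the amino end of some peptides, among them neurotensin, was higher by 1.74, at least 1.35-fold. It was above log2 5 on no paired cortex array, so passing the filter already favoured that difference. The release factors Cadps2, at least 7.28-fold, and Cadps, with a difference of -1.19, were lower, as was the vesicle protein Chgb, with -0.96. Of the 14, 4 were called by strain, Pam, Scg5, Scg2 and Chga, against 18.8% of all genes.

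Of 25 other neuropeptide precursors matched to a probe set, 5 were kept. Penk was higher in accumbens by 5.05, Tac1 by 4.10, Pdyn by 2.73 (at least 4.32-fold) and Apln by 0.21 (0.06 and not called after quantile normalization, limma adjusted p = 0.34), and Grp was lower, with a difference of -4.26, at least 3.14-fold. Neither Pdyn in cortex nor Grp in accumbens was above log2 5 on any paired array, so passing the filter already favoured their differences. Pdyn, Penk and Tac1 are the classical peptides of spiny projection neurons and also stand in that list. Of the hypothalamic marker list, 6 genes were matched to a probe set and 0 passed the filter.

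Interneuron genes went both ways, in shares close to those of all genes. Of 18 listed GABA interneuron genes matched to a probe set 13 were kept, 7 were higher in accumbens, 4 lower and 2 not called, against 50% higher and 33.8% lower over all genes. Their median difference was 0.67, or 0.48 with values under log2 5 raised to it, and Gad1, Gad2 and Slc32a1 among those higher are also made by the projection neurons of accumbens. Sox6, not called here, was called lower after quantile normalization and after centring. Pvalb, the marker of fast-spiking interneurons, averaged 4.58 in accumbens, with 12 of 27 arrays above log2 5, and 8.66 in cortex, at least 9.31-fold lower in accumbens. The other genes called lower were Lamp5, with a difference of -1.42, Maf, with -1.03, and Dlx1, with -0.33. Lamp5 and Maf were higher in accumbens in 0 of 27 strains. Lhx6, a factor of the interneuron lineage that includes Sst cells, was at least 2.55-fold higher in 27 of 27 strains. Nos1, the nitric oxide synthase made by striatal Sst and Npy interneurons, was at least 1.58-fold higher, also in 27 of 27 strains. Its means of 5.95 in accumbens and 5.27 in cortex were close to log2 5, and most arrays of a region read nearly alike. Its highest accumbens values were 6.97 in CE/J and 6.49 in BALB/cByJ. The part of separate normalization in the Nos1 difference was not tested. Of the paired cortex arrays, Lhx6 was above log2 5 on 2 and Dlx5 on 1, so passing the filter favoured their calls. Lhx6 was highest in accumbens on the 4 arrays that were also highest for Lhx8, at 8.82 in BALB/cByJ, 7.71 in WSB/EiJ, 7.60 in NON/LtJ and 7.57 in CE/J, and the part of this in its region difference was not tested. These levels were not scaled to any count of interneurons.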

How the data were processed

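The arrays' values were taken from 1 deposited table of probe set intensity on a linear scale, made by the authors with GCRMA per the submitters' processing notes, which give no version. Of 45015 probe sets, 64 controls were left out, and 34880 had 1 gene symbol, 923 several and 9148 none. Values were used as log2 without a pseudocount, and probe sets brighter than log2 5 on 13 or more of the 54 arrays in pairs were kept. Counted upwards, the value at rank 10 of an array was between 1.12 and 1.15 on accumbens arrays and between 0.98 and 1.01 on cortex arrays, and counted downwards, that at rank 100 was between 12.45 and 12.56 on accumbens arrays and between 12.29 and 12.41 on cortex arrays.

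Region and strain were tested with limma (lmFit, eBayes) 3.58.1 under R 4.3.3, strain being a block, on 54 arrays, with Benjamini-Hochberg adjustment over 16056 probe sets and a threshold of 0.05. The script was tested on simulated data. Lists used each gene's brightest kept probe set. Where the dimmer region had arrays below log2 5, the fold is a bound, with each of those arrays raised to log2 5. The design text puts both regions of a strain in the same brains, and the best match of 25 of 27 accumbens arrays and of 21 of 27 cortex arrays in the other region was the array of the same strain. No strain had a second pool, so p-values rest on the spread between strains. The design text mentions both sexes, and the labels of the arrays used say male.

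All probe sets of the 10 genes are named, with the 3 genes most alike in accumbens and part of each receptor, processing, precursor and cell type list. The genes and lists were chosen with earlier results of these data known, as were the strains left out together. Python 3.11.15, numpy 2.4.6, pandas 2.3.3 and matplotlib 3.10.9 were used, and promoter sequences are RefSeq's. The alternatives are those of the closing section.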

Additional observations from a re-analysis of the deposited data

How the results depend on the processing

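Of 349 alternative values of the region differences of the 9 tested genes, 348 kept their direction and their side of the threshold, and of 340 for the strain test all did. In each test 27 values per gene came from leaving out 1 strain, which changes the data little, so these counts overstate the range of settings tried. The exception among the region differences was Tac2 with values under log2 5 raised to log2 5, at -0.28 (limma adjusted p = 0.134). That setting kept the calls of the other dim genes but moved them to 3.97 for Cartpt, 3.02 for Nts, -3.84 for Vip and -0.32 for Adcyap1. Tac2 and Adcyap1 had no value with the filter at log2 7. Without the replicate block, 8003 probe sets were called higher in accumbens and 4818 lower. The differences themselves, such as -6.07 for Cck and 7.18 for Cartpt, cannot change in that setting, because each tested strain had both regions. Higher calls in accumbens numbered 17003 with no filter, 4293 with the filter at log2 7 and 5451 with 1 probe set per gene, and lower calls 18679 with no filter and 2761 with the filter at log2 7. Strain calls numbered 1634 with the filter at log2 7 and 1873 at a threshold of 0.01. No filter, trend and robust variance, probe sets prone to cross-hybridisation left out, quantile normalization, centring and the 2 sets of strains left out changed no call of the 9 genes. Leaving out each strain in turn gave region differences from -6.19 to -6.02 for Cck, -6.03 to -5.93 for Vip, -0.55 to -0.49 for Sst, -0.48 to -0.42 for Npy, -1.39 to -1.11 for Tac2, -2.44 to -2.36 for Adcyap1, 1.18 to 1.28 for Crh, 7.14 to 7.28 for Cartpt and 5.46 to 5.57 for Nts. Higher calls then ran from 8203 to 8344, lower calls from 4991 to 5155 and strain calls from 2870 to 3535. The cause of these shifts was not tested. Limits: 1 pooled array per strain and region gives no error within a strain. Separate normalization touches differences near 0.13 and some larger ones. Among these, Apln (0.21) and Ntsr2 (0.28) lost their calls under at least 1 other scaling. Levels below log2 5 have no reliable order. This bears on Tac2, Adcyap1 and Cort and on all levels of Cartpt and Nts in cortex and of Vip in accumbens.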
